A study of Caenorhabditis elegans with 20 samples.

Results

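Axon guidance and outgrowth genes were followed through the 4 groups of a microarray experiment on whole *Caenorhabditis elegans*, in which the aryl hydrocarbon receptor gene ahr-1 was mutated and worms were fed the plant polyphenol curcumin. The list names 44 genes for ligands, receptors and cytoskeletal effectors, and a gene was measured where a probe set of the array carried its symbol and no other. This held for 43 of the 44 genes, each with a single probe set, out of 25546 single-symbol probe sets and 29317 probe sets in all. ptp-3, a receptor tyrosine phosphatase of axons, had no such probe set and was not analysed here. All 43 probe sets had a mean above the median of all probe sets, which was 4.25 on the log2 scale.

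Growing axons are steered by secreted and membrane-bound cues (netrin, slit, ephrins and semaphorins) that act on receptors of the growth cone, the moving tip of the axon. The receptors act through small GTPases and proteins that build or anchor actin and microtubules, and adhesion molecules hold the axon on its path. In *C. elegans* the same genes also serve cell migration and epidermal morphogenesis, so several of them are used outside neurons, and AHR-1 is known for its part in the fate of certain neurons.

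The groups were wild-type (strain N2) and ahr-1(ju145) (strain CZ2485), each with 0.1% DMSO, the solvent, alone or with 100 µM curcumin. By the study's methods the curcumin plates held the same 0.1% DMSO. Both agents were in the plates from the egg stage on, and whole worms were taken on day 3. Each group had 5 arrays. The study's methods describe them as independent replicates of pooled worms fed HT115 bacteria. The mutant is represented by 1 allele in 1 strain. Values are log2 after RMA, so that a difference of 1 is a doubling, and values of different probe sets are not compared with each other. The fits omitted replicate 5 of the mutant with curcumin, so that 19 arrays were compared with limma, and a difference passed at an adjusted p under 0.1. Both choices follow the study's methods. In RNA of whole worms, fewer cells of a type and less RNA per cell cannot be told apart.

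The probe set of ahr-1 itself stood at 5.20, 4.92, 5.11, 4.96 and 5.45 in wild-type with DMSO and at 4.94, 4.27, 4.90, 4.85 and 4.98 in ahr-1(ju145) with DMSO, always in the order of replicates 1 to 5. The groups overlapped, and the log2 fold change of -0.34 ± 0.14 (SE) did not pass (limma adjusted p = 0.35). With curcumin it was -0.43 ± 0.15 (limma adjusted p = 0.307). Where its probes lie relative to the mutation was not examined here, so these values do not check the genotype labels.

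Loss of ahr-1 in DMSO-treated worms was compared first. Of the 43 guidance genes, 10 were lower in ahr-1(ju145) and 0 were higher: unc-6, unc-129, slt-1, efn-2, plx-2, syg-1, syg-2, prkl-1, max-1 and unc-44. Over all probe sets, 1.31% were lower and 0.498% higher. All 43 genes lie above the median level, and in a fit of the 14658 probe sets above it 2.81% were lower. The 10 genes comprise 4 of the 11 ligands, 3 of the 16 receptors and 3 of the 16 effectors. The log2 fold changes of the 43 genes ranged from -1.15 to 0.18 with a median of -0.23, where the median of all probe sets was 0.02. For 41 of the 43 genes the value was below 0, against 44.7% of all probe sets. At an unadjusted p under 0.05, 23 genes were lower and 0 higher, against 5.64% lower over all probe sets. In the fit of the 14658 probe sets above the median level, 1193 were lower at that p.

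The levels of 13 genes did not overlap between the DMSO groups, with every ahr-1(ju145) array below every wild-type array, against 1.83% of all probe sets. These were 9 of the 10 genes that passed, all but syg-2, together with unc-5, unc-115, unc-33 and unc-51. The mean over the 43 genes lay between 7.99 and 8.34 in the wild-type DMSO arrays and between 7.78 and 7.94 in the ahr-1(ju145) DMSO arrays.

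**Figure D1:**
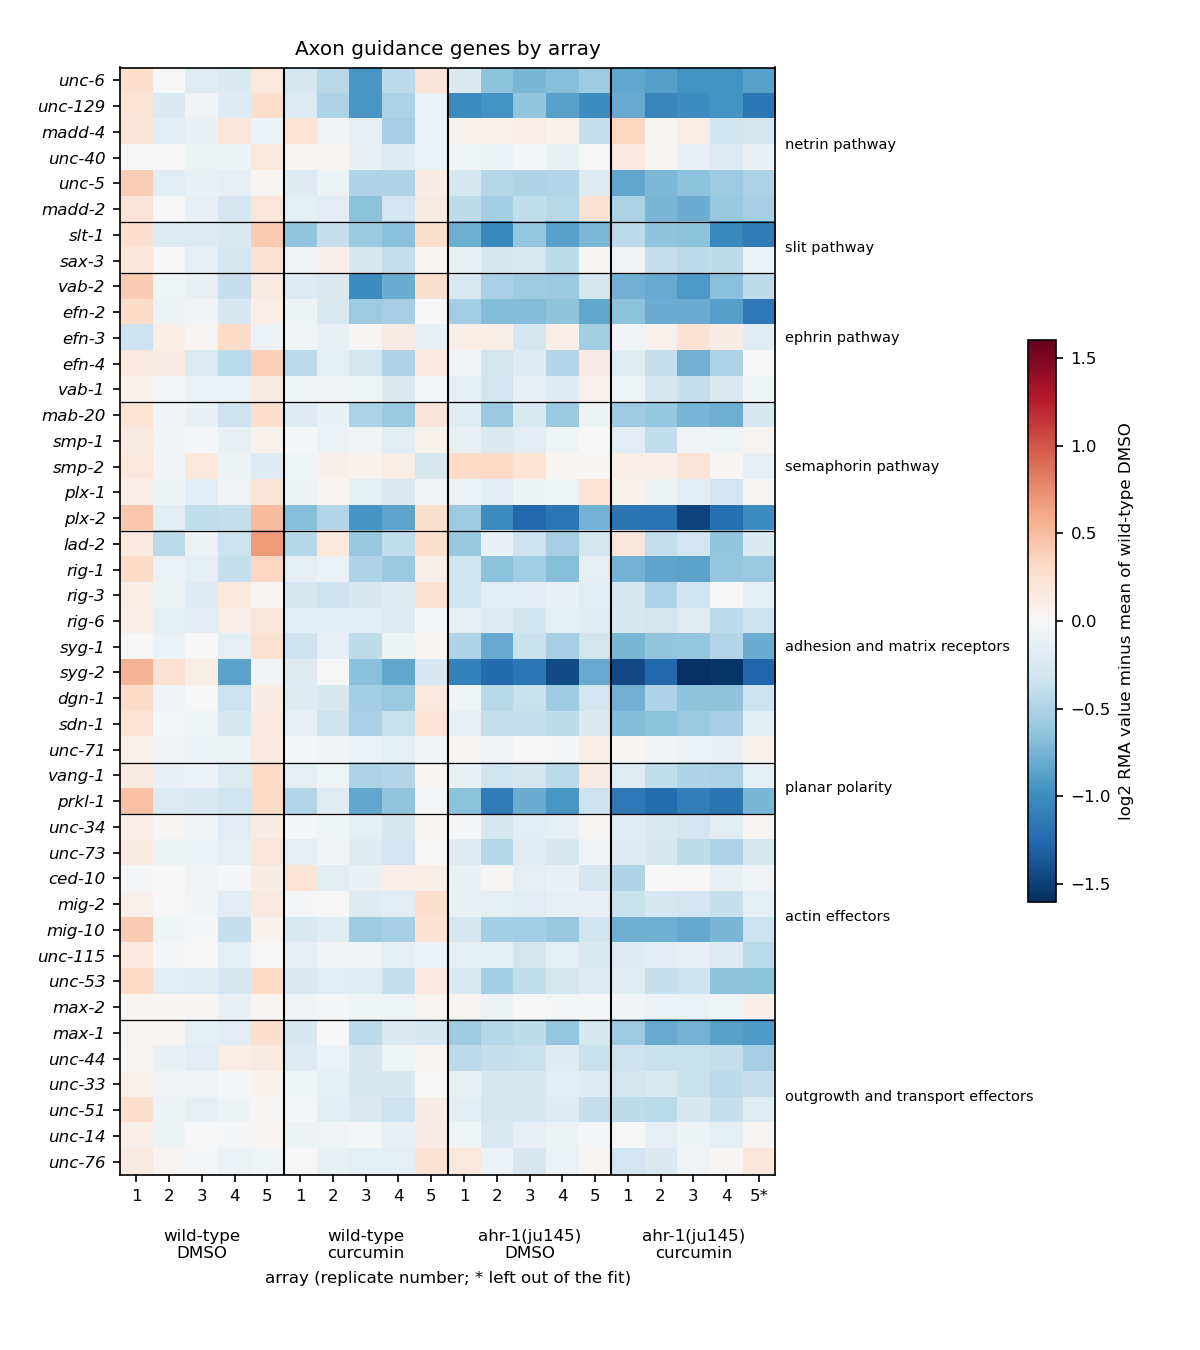
Log2 RMA values of 43 guidance genes (rows, grouped by pathway) in 20 arrays (columns, by group and replicate), shown as the difference from the mean of the 5 wild-type DMSO arrays of the same gene. Blue is below that mean and red above it, and the asterisk marks the array left out of the fits. The wild-type DMSO replicates 1 and 5 and wild-type curcumin replicate 5 are the reddest columns, and syg-2, plx-2, unc-129 and prkl-1 are the bluest rows in ahr-1(ju145).

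Among the diffusible cues, unc-6 encodes netrin, a laminin-related cue laid down along the ventral side of the worm. Its level (probe set 18610041) was 7.53, 7.27, 7.08, 7.05 and 7.45 in wild-type with DMSO and 7.05, 6.62, 6.54, 6.59 and 6.69 in ahr-1(ju145) with DMSO. The groups did not overlap, although ahr-1(ju145) replicate 1 came to the level of wild-type replicate 4 within rounding. The difference was -0.58 ± 0.16 with a limma adjusted p of 0.0899, the highest among the 10 genes.

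unc-129, a TGF-β family ligand that works with the netrin receptor UNC-5, had the lowest adjusted p of the 43 genes. Its level (probe set 18550485) was 5.62, 5.17, 5.34, 5.19 and 5.68 in wild-type with DMSO and 4.39, 4.45, 4.77, 4.53 and 4.41 in ahr-1(ju145) with DMSO. All 5 mutant arrays were below all 5 wild-type arrays. The log2 fold change was -0.89 ± 0.14 (limma adjusted p = 0.00536).

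The other members of the netrin pathway did not pass. unc-5, the receptor for repulsion from netrin, had a value of -0.38 ± 0.12 (limma adjusted p = 0.169), and its groups did not overlap. unc-40, the netrin receptor related to DCC, stood at -0.06 ± 0.0746. madd-4, a secreted cue of the punctin kind, stood at -0.01 ± 0.14, and madd-2, a TRIM protein that acts with UNC-40, at -0.31 ± 0.15. In madd-2, 4 of the 5 mutant arrays lay between 6.98 and 7.13, below every wild-type array, and replicate 5 was at 7.77, above all of them.

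slt-1 encodes slit, the ligand of the Robo receptor SAX-3. It was measured (probe set 18609958) at 5.67, 5.19, 5.18, 5.16 and 5.82 in wild-type with DMSO and at 4.62, 4.37, 4.78, 4.53 and 4.68 in ahr-1(ju145) with DMSO. Wild-type replicates 1 and 5 stood well above the other 3, and even those lay above every mutant array. slt-1 was lower in ahr-1(ju145) by -0.80 ± 0.17 on the log2 scale (limma adjusted p = 0.0365). sax-3 had a value of -0.21 ± 0.12 (limma adjusted p = 0.534).

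Among the ephrins, membrane-anchored cues for the Eph receptor VAB-1, efn-2 alone passed. Its level (probe set 18535078) was 6.69, 6.32, 6.35, 6.13 and 6.5 in wild-type with DMSO and 5.84, 5.71, 5.71, 5.76 and 5.57 in ahr-1(ju145) with DMSO. The groups were apart, with an SD of 0.21 in wild-type and 0.10 in the mutant (n = 5 each), and the log2 fold change was -0.68 ± 0.11 (limma adjusted p = 0.0114). The ephrin vab-2 stood at -0.44 ± 0.18, efn-4 at -0.18 ± 0.16, efn-3 at -0.10 ± 0.13 and the receptor vab-1 at -0.14 ± 0.077, none of which passed.

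In the semaphorin pathway plx-2, a plexin receptor, was lower. It stood (probe set 18500922) at 7.61, 7.0, 6.78, 6.81 and 7.68 in wild-type with DMSO and at 6.59, 6.17, 5.92, 6.02 and 6.42 in ahr-1(ju145) with DMSO. No arrays overlapped, and wild-type replicates 1 and 5 were again the highest. The difference was -0.95 ± 0.22 (limma adjusted p = 0.0444). The secreted semaphorin mab-20 had -0.34 ± 0.15, the transmembrane semaphorins smp-1 and smp-2 had -0.11 ± 0.0748 and 0.18 ± 0.091, and plx-1, the plexin of these last, had -0.04 ± 0.0885. smp-2 had the highest value of the 43 genes, with a limma adjusted p of 0.493.

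The largest difference of all 43 genes was that of syg-2, an immunoglobulin-superfamily protein that marks where the HSN neuron forms its synapses. Its level (probe set 18604808) was 8.0, 7.69, 7.56, 6.60 and 7.41 in wild-type with DMSO and 6.37, 6.21, 6.30, 6.02 and 6.64 in ahr-1(ju145) with DMSO. Wild-type replicate 4 was far below the other wild-type arrays and just below mutant replicate 5, which is the only overlap. The log2 fold change was -1.15 ± 0.21 (limma adjusted p = 0.0181).

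syg-1, the binding partner of SYG-2, was also lower. Its level (probe set 18628536) was 6.74, 6.66, 6.76, 6.61 and 6.99 in wild-type with DMSO and 6.27, 5.94, 6.40, 6.22 and 6.46 in ahr-1(ju145) with DMSO, without overlap. The difference was -0.50 ± 0.10 (limma adjusted p = 0.0348). Of the other adhesion and matrix receptors, the immunoglobulin protein rig-1 stood at -0.47 ± 0.15, the L1-like lad-2 at -0.37 ± 0.21, the dystroglycan gene dgn-1 at -0.35 ± 0.14 and the syndecan gene sdn-1 at -0.31 ± 0.12. The contactin-like rig-6, rig-3 and the ADAM gene unc-71 had -0.20, -0.19 and 0.01. None of these 7 passed.

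prkl-1 encodes Prickle, a planar polarity protein that acts with the membrane protein VANG-1. It was measured (probe set 18560959) at 7.01, 6.32, 6.29, 6.22 and 6.84 in wild-type with DMSO and at 5.88, 5.42, 5.74, 5.60 and 6.19 in ahr-1(ju145) with DMSO. The highest mutant array was just below the lowest wild-type array. The difference was -0.77 ± 0.17 (limma adjusted p = 0.0428), and vang-1 stood at -0.20 ± 0.13 (limma adjusted p = 0.617).

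Inside the cell, max-1 and unc-44 were lower. max-1, a motor axon guidance gene that acts with UNC-5, stood (probe set 18584649) at 5.59, 5.58, 5.39, 5.36 and 5.80 in wild-type with DMSO and at 4.98, 5.09, 5.14, 4.93 and 5.26 in ahr-1(ju145) with DMSO. unc-44, the ankyrin that anchors membrane proteins to the axonal cytoskeleton, stood (probe set 18532489) at 9.66, 9.52, 9.46, 9.74 and 9.78 against 9.21, 9.26, 9.27, 9.42 and 9.28. Neither gene overlapped between the groups. Their log2 fold changes were -0.47 ± 0.0943 (limma adjusted p = 0.0297) and -0.35 ± 0.0727 (limma adjusted p = 0.0348).

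Of the other outgrowth effectors, the kinase gene unc-51 had -0.26 ± 0.0876, the CRMP gene unc-33 -0.21 ± 0.0621, unc-14, whose product binds UNC-51, -0.11 ± 0.0612 and the FEZ gene unc-76 -0.05 ± 0.0923, none of which passed. The 8 actin effectors ranged from -0.46 to -0.02 with 0 passed and a lowest limma adjusted p of 0.126 in unc-115, an actin-binding LIM protein. The largest value was that of mig-10, a lamellipodin that promotes outgrowth at the growth cone. Its level was 10.01, 9.53, 9.58, 9.23 and 9.65 in wild-type with DMSO and 9.33, 9.05, 9.04, 8.99 and 9.28 in ahr-1(ju145) with DMSO, where mutant replicates 1 and 5 lay above wild-type replicate 4. The difference of -0.46 ± 0.14 did not pass (limma adjusted p = 0.147). The microtubule-binding unc-53 (-0.33), the GEF unc-73 (-0.23), the Rac-like mig-2 (-0.14), ced-10, the Rac (-0.12), the Ena/VASP gene unc-34 (-0.12) and the kinase gene max-2 (-0.02) did not pass either.

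**Figure D2:**
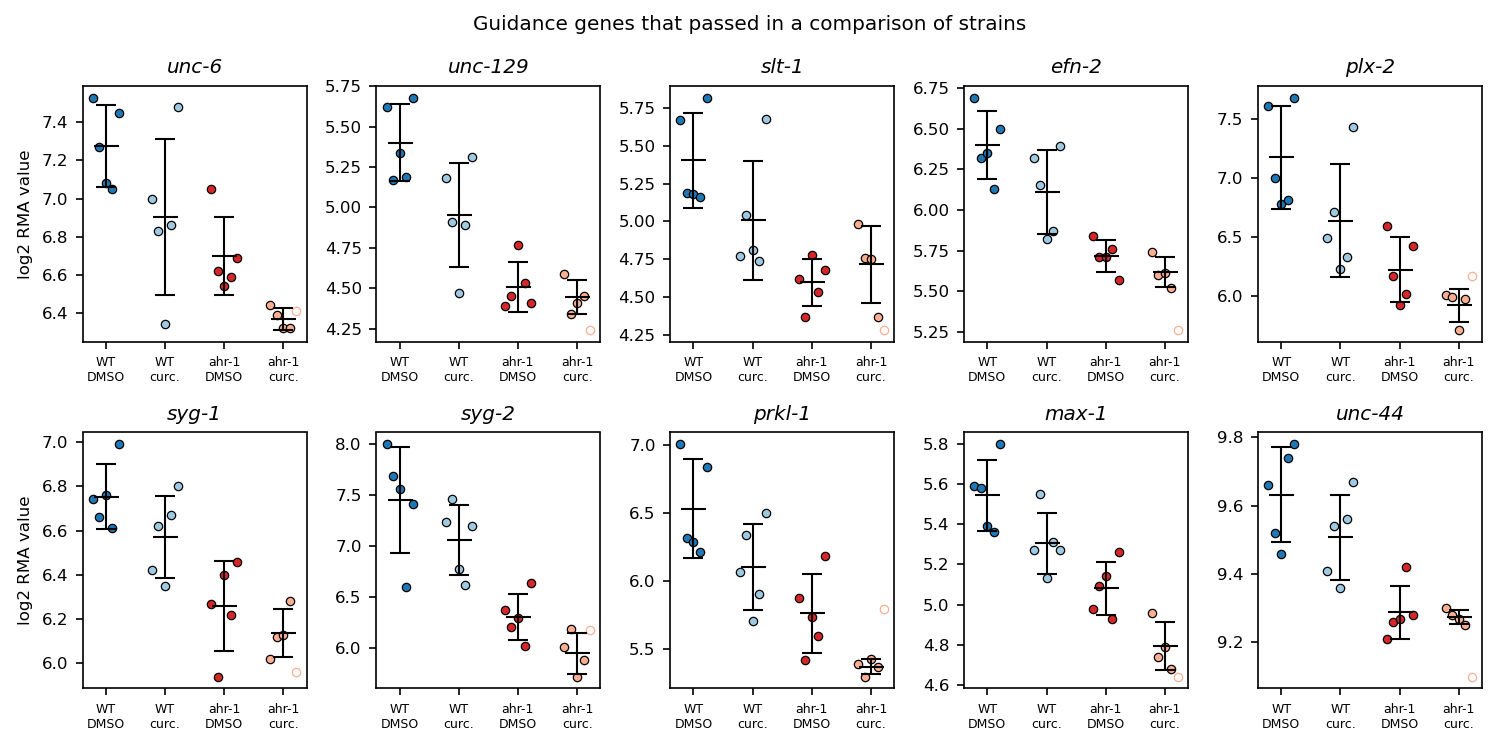
Log2 RMA value (y axis) of the 10 genes that passed in a comparison of strains, in the 4 groups (x axis; WT is wild-type, ahr-1 is ahr-1(ju145), curc. is curcumin). Points are arrays, bars are mean ± SD over the arrays of the fit (n = 5, or 4 for curcumin-treated ahr-1(ju145)), and the open point is the array left out. In each gene but syg-2 all ahr-1(ju145) DMSO points lie below all wild-type DMSO points.

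By the correlation of their deviations, equal replicate numbers paired the arrays of this comparison, and with the replicate number as a block 15 genes were lower and 0 higher, while the share of all probe sets that were lower went from 1.31% to 2.18%. The 10 genes kept their calls, and mab-20, rig-1, mig-10, unc-53 and unc-33 joined them with limma adjusted p-values of 0.0674, 0.0219, 0.0483, 0.0802 and 0.0785. Wild-type replicates 1 and 5 held the highest value of their group in 18 and 22 of the 43 genes, and replicate 4 the lowest in 26. Without wild-type replicate 1, or without replicate 5, 6 of the genes passed, and the share of all probe sets that were lower was 0.29% and 0.457%. slt-1 (limma adjusted p = 0.121 and 0.103), plx-2 (0.137 and 0.123), prkl-1 (0.128 and 0.118) and unc-6 (0.231 and 0.205) did not pass in these fits.

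Markers of other cells moved along with this comparison. Of 18 measured genes of epidermis and molting, 9 were lower and 0 higher in ahr-1(ju145) with DMSO, against 1.31% and 0.498% of all probe sets, with a median of -0.72. The largest were the patched-related ptr-4 (-1.6), the cuticle collagen gene sqt-3 (-1.52) and the molting gene mlt-11 (-1.50). Their mean level per array lay between 6.82 and 7.25 in wild-type and between 6.14 and 6.48 in the mutant, without overlap. With that mean as a covariate, an alternative chosen after seeing the data, 0 of the 43 genes passed and their median was 0.03, while over all probe sets 1 was lower and 11 higher. In this fit unc-129 had -0.47 ± 0.17 (limma adjusted p = 0.372), syg-2 -0.55 ± 0.27 (limma adjusted p = 0.514) and efn-2 -0.30 ± 0.13 (limma adjusted p = 0.461). max-1 stood at -0.32, slt-1 at -0.30, syg-1 at -0.24 and unc-44 at -0.22. The other 3 genes came close to 0, with prkl-1 at -0.10 ± 0.17 (limma adjusted p = 0.895), plx-2 at -0.04 ± 0.19 and unc-6 at 0.04 ± 0.15 (limma adjusted p = 0.962 each). Because the covariate itself separates the strains with DMSO, what goes with the strain and what goes with these markers cannot be told apart in this comparison.

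Neurons and embryos were followed in the same way, beside the same 1.31% lower and 0.498% higher over all probe sets. Of 20 pan-neuronal genes, 2 were lower, the tubulin gene tbb-4 and aex-3, with a median of -0.02, and their mean level was between 6.92 and 7.0 in wild-type and between 6.88 and 6.95 in the mutant. Of 34 genes of embryos, 2 were lower (pha-4 and nob-1) and 1 was higher (med-2), with a median of -0.09. Their mean level was between 5.57 and 5.93 in wild-type and between 5.46 and 5.73 in the mutant, and with it as a covariate 9 guidance genes were lower, without unc-6, against 0.733% of all probe sets, and the median was -0.14. Of the glial and pharyngeal genes 1 each was lower (ttx-1 and pqn-13), and among those of body wall muscle, intestine, oocytes and sperm 0 passed by limma, while at an unadjusted p under 0.05 these lists had 1, 0, 1 and 1 higher genes and 0 lower ones. Over all probe sets, 1616 of 29317 were higher at that p and 5.64% were lower. The part of the markers in the result was not tested beyond the covariates given.

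**Figure D3:**
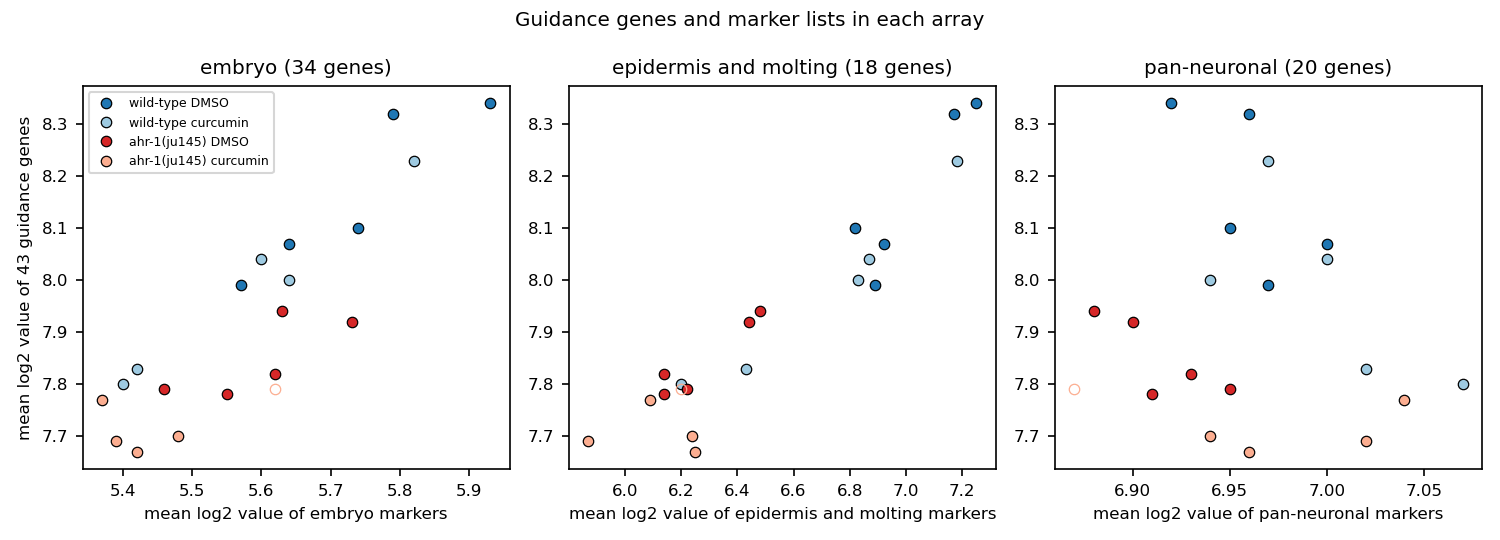
Mean log2 value of 43 guidance genes in each array (y axis) against the mean log2 value of the embryo, the epidermis and molting, and the pan-neuronal markers in the same array (x axes), coloured by group, with the array left out of the fits as an open point. The 3 arrays with the highest guidance means also have the highest embryo means, 5.79 to 5.93, and the highest epidermis and molting means, 7.17 to 7.25. The pan-neuronal mean stays between 6.88 and 7.07 in the arrays of the fits.

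Other genes of axon guidance, listed apart from the 43 genes, were looked up in the same fit. The median of 82 measured genes was -0.08 (0.02 over all probe sets), and 63 had a value below 0, against 44.7% of all probe sets. Of the 82 genes, 11 were lower and 0 higher, against 1.31% and 0.498% of all probe sets. The largest were the dendrite receptor gene dma-1 (-1.30 ± 0.28, limma adjusted p = 0.0388), the Flamingo cadherin gene fmi-1 (-1.29 ± 0.24, limma adjusted p = 0.0181) and the neuronal transcription factor gene zag-1 (-1.02 ± 0.23, limma adjusted p = 0.047). The SLT-1 co-receptor gene eva-1 (-0.99) and the Wnt gene cwn-2 (-0.79) were lower as well, as were rpm-1, the spectrin gene unc-70, the laminin genes lam-2 and lam-3 and the nidogen gene nid-1. By group, 4 of 14 adhesion and dendrite receptors, 3 of 18 matrix genes, 2 of 18 outgrowth genes, 1 of 11 Wnt ligands and receptors and 1 of 21 actin regulators were lower.

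Loss of ahr-1 was then compared in curcumin-treated worms, where 2 of the 43 genes were lower and 0 higher, against 0.379% and 0.174% of all probe sets. In a fit of the 14658 probe sets above the median level, 1.17% were lower. The 2 genes, syg-2 and max-1, were also among the 10 genes with DMSO, in arrays that the comparisons do not share. The fit, however, pools its estimate of spread over all 4 groups, so the p-values of the comparisons are not independent. With the arrays of the compared groups alone syg-2 passed with curcumin and max-1 did not. In the main fit the median of the 43 genes was -0.22 (0.01 over all probe sets), and 38 had a value below 0, against 46.4% of all probe sets. At an unadjusted p under 0.05, 20 were lower and 0 higher, against 4.54% lower over all probe sets.

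syg-2 stood at 7.24, 7.46, 6.78, 6.62 and 7.20 in wild-type with curcumin and at 6.01, 6.19, 5.72 and 5.88 in replicates 1 to 4 of ahr-1(ju145) with curcumin, and at 6.18 in replicate 5, which was left out. Every mutant array was below every wild-type array, by -1.11 ± 0.22 in the fit (limma adjusted p = 0.0448). max-1 stood at 5.27, 5.55, 5.13, 5.31 and 5.27 in wild-type with curcumin and at 4.96, 4.74, 4.79 and 4.68 in the mutant, with 4.64 in the array left out. The groups did not overlap, and the difference was -0.51 ± 0.10 (limma adjusted p = 0.0416).

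The number of genes that passed depended on single arrays. Without wild-type curcumin replicate 3, which held the lowest value of its group in 17 genes, 10 passed, and the share of all probe sets that were lower went from 0.379% to 0.914%. Without replicate 2 of wild-type or replicate 3 of the mutant that share was 0.0682% each, and 0 of the 43 genes passed, with syg-2 at a limma adjusted p of 0.125 and 0.148 and max-1 at 0.116 and 0.128. With the embryo markers or the epidermis and molting markers as a covariate 0 passed as well, against 0.167% and 0.0171% of all probe sets that were lower, and the median of the 43 genes was -0.09 and -0.01. Of the 18 epidermis and molting genes 5 were lower in this comparison, with a median of -0.49. Of the 34 embryo genes 3 were lower (hch-1, pha-4 and nob-1), with a median of -0.04. Of the 20 pan-neuronal genes 1 was lower (aex-3), as was 1 of the 10 glial genes (ttx-1). All these counts stand against 0.379% lower over all probe sets, and in each of these lists 0 genes were higher.

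In the arrays of the fit the groups with curcumin did not overlap in 12 of the 43 genes, all with the mutant below, against 1.73% of all probe sets. These were unc-5, efn-2, plx-2, rig-1, syg-1, syg-2, sdn-1, prkl-1, mig-2, mig-10, max-1 and unc-44. Among those that did not pass, prkl-1 had -0.73 ± 0.18 (limma adjusted p = 0.113), plx-2 -0.71 ± 0.23 (limma adjusted p = 0.253), efn-2 -0.49 ± 0.12 (limma adjusted p = 0.105) and unc-5 -0.47 ± 0.13 (limma adjusted p = 0.147). unc-6 stood at -0.53 ± 0.16 and mig-10 at -0.52 ± 0.15. The mutant array left out, replicate 5, was above the lowest wild-type curcumin array in sdn-1 (9.58 against 9.25) and prkl-1 (5.80 against 5.71). The same held in mig-2 (7.97 against 7.93) and mig-10 (9.26 against 9.03).

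The spread differed between the groups with curcumin in the arrays of the fit, which omit replicate 5 of the mutant. Over the 43 genes the SD had a median of 0.19 in wild-type (n = 5), with the widest, 0.50, in vab-2, and a median of 0.11 in the mutant (n = 4), with the widest, 0.34, in lad-2. prkl-1, for example, was at 6.11 ± 0.32 in wild-type (SD, n = 5), with its lowest array at 5.71, and at 5.38 ± 0.05 in the mutant (SD, n = 4), with its highest at 5.43. unc-6 was at 6.90 ± 0.41 in wild-type and at 6.37 ± 0.06 in the mutant. The mutant array left out was at 5.80 for prkl-1, above the lowest wild-type array. For unc-6 it was at 6.41, within the range of the other mutant arrays. SDs that include it were not computed. In unc-6 the groups overlapped through wild-type replicate 3, at 6.34, which was the lowest array of that group also in unc-129, plx-2, prkl-1, vab-2 and efn-2.

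Side by side, the 43 values of the DMSO and the curcumin comparison had the same sign in 40 genes and were both below 0 in 38. Across these genes, which are not independent replicates, Pearson's r was 0.883 and Spearman's rho 0.894. The comparisons rest on different arrays, but arrays of equal number correlated between the treatments. In wild-type the mean correlation of their deviations was 0.247, against -0.0616 for unequal numbers. unc-129 and slt-1 were the genes that passed with DMSO and stood farthest apart, at -0.89 and -0.80 with DMSO and at -0.50 ± 0.14 and -0.29 ± 0.18 with curcumin. Of the other guidance genes, 3 of 82 were lower with curcumin (dma-1, fmi-1 and lam-3), against 0.379% of all probe sets. In the same comparison 1 was higher, against 0.174%, the Rac exchange factor gene tiam-1 (0.46 ± 0.08, limma adjusted p = 0.0253).

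**Figure D4:**
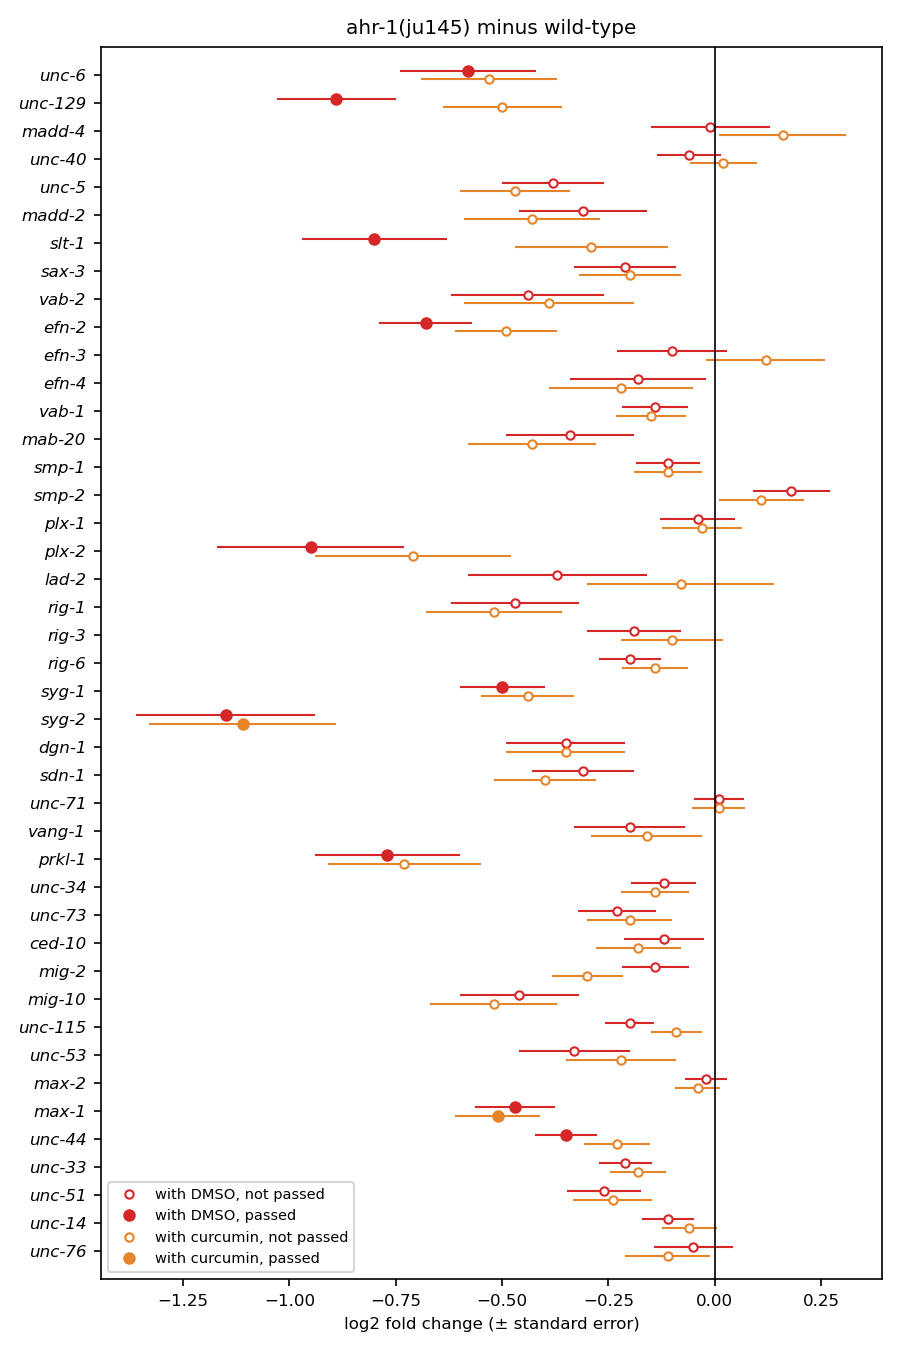
Log2 fold change of ahr-1(ju145) minus wild-type (x axis) for 43 guidance genes (y axis), with DMSO in red and with curcumin in orange. Bars are the standard error of the limma fit, and filled points passed an adjusted p of 0.1. Filled points are found for 10 genes with DMSO and for syg-2 and max-1 with curcumin, all below 0.

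Curcumin was compared with DMSO within each strain. In wild-type 0 of the 43 genes passed by limma, where 0.143% of all probe sets did, in either direction. Of the 43 values 42 were below 0, against 50.4% of all probe sets, with a range of -0.54 to 0.02 and a median of -0.17 (-0.0 over all probe sets). At an unadjusted p under 0.05, 11 were lower and 0 higher, against 3.3% lower over all probe sets. In 0 genes did the groups lie apart with curcumin below, against 0.365% of all probe sets. The wild-type DMSO arrays are the same ones that loss of ahr-1 with DMSO was measured against, so these comparisons are not independent. Replicates 1 and 5 were the highest pair of those DMSO arrays in 31 of the 43 genes.

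plx-2 had the largest value of this comparison, with 6.49, 6.71, 6.23, 6.33 and 7.43 in curcumin-treated wild-type. Replicate 5 was within the range of the DMSO arrays, and the other 4 were below all of them. The difference was -0.54 ± 0.22 (limma adjusted p = 0.682). unc-129 stood at 5.18, 4.91, 4.47, 4.89 and 5.31 with curcumin, where replicates 1 and 5 reached the lower DMSO arrays, and had -0.45 ± 0.14 (limma adjusted p = 0.458, the lowest of the 43 genes). By pathway, the medians with curcumin in wild-type were -0.33 over the 2 planar polarity genes, -0.25 over the 2 slit pathway genes, -0.23 over the 6 netrin genes, -0.24 over the 5 ephrin genes, -0.10 over the 5 semaphorin genes, -0.20 over the 9 adhesion and matrix receptors, -0.09 over the 8 actin effectors and -0.13 over the 6 outgrowth effectors. All 11 ligands and all 16 receptors had a value below 0, with 5 and 3 of them at an unadjusted p under 0.05, and ced-10 (0.02 ± 0.0941) was the exception among the 16 effectors.

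Replicate 5 held the highest value of the curcumin-treated wild-type group in 32 of the 43 genes. Across that group the mean over the 43 genes ran from 7.80 to 8.23, the mean of the epidermis and molting markers from 6.20 to 7.18 and that of the embryo markers from 5.4 to 5.82. In wild-type with DMSO these marker means ran from 6.82 to 7.25 and from 5.57 to 5.93. Of the 18 epidermis and molting genes 0 passed with curcumin in wild-type, and at an unadjusted p under 0.05, 7 were lower and 1 higher, with a median of -0.38. Of the 34 embryo genes 0 passed, and 8 were lower and 0 higher at that p, with a median of -0.11. Over all probe sets 3.3% were lower at that p. With the embryo markers as a covariate the median of the guidance genes was -0.03 and 33 values were below 0, against 14379 of 29317 probe sets. With the epidermis and molting markers their median was -0.03 with 34 below 0, against 14599 of 29317 probe sets. The part of the markers was not tested beyond these covariates.

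In ahr-1(ju145) 0 of the 43 genes passed by limma, against 0.0648% of all probe sets. The values ranged from -0.39 to 0.20 with a median of -0.1 (-0.01 over all probe sets), and 36 were below 0, against 51.9% of all probe sets. At an unadjusted p under 0.05, 7 were lower and 0 higher, against 3.86% lower over all probe sets. The 7 genes above 0 were madd-4, unc-40, slt-1, efn-3, lad-2, unc-115 and unc-14, with efn-3 the highest at 0.20 ± 0.14 (limma adjusted p = 0.805). With the embryo markers as a covariate the median turned to 0.01 and 18 of the 43 values were below 0, against 14508 of 29317 probe sets. With the epidermis and molting markers the median was -0.06 with 33 below 0, against 15011 of 29317 probe sets. Of the 34 embryo genes 0 passed with curcumin in ahr-1(ju145), and 8 were lower and 0 higher at an unadjusted p under 0.05, with a median of -0.14. Their mean was between 5.46 and 5.73 with DMSO and between 5.37 and 5.48 in the curcumin arrays of the fit. Of the 18 epidermis and molting genes 5 were lower and 2 higher at that p, with a median of -0.13. The lowest unadjusted p of the guidance genes was that of max-1, with a value of -0.29 ± 0.10 (limma adjusted p = 0.546).

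prkl-1 had the largest value, -0.39 ± 0.18 (limma adjusted p = 0.662), with 5.39, 5.30, 5.43 and 5.37 in the curcumin arrays of the fit. These were close together, and mutant DMSO replicate 2, at 5.42, lay within them. syg-2 came next at -0.36 ± 0.22 (limma adjusted p = 0.765), with the curcumin arrays between 5.72 and 6.19 and the DMSO arrays between 6.02 and 6.64. With the embryo markers as a covariate syg-2 was at 0.01. madd-2 stood at 7.02, 6.79, 6.73 and 6.91 with curcumin and had -0.35 ± 0.16 (limma adjusted p = 0.649), with an overlap through 1 DMSO array, at 6.98. In the arrays of the fit the groups lay apart with curcumin below in 6 genes (unc-6, unc-5, vab-2, sdn-1, mig-2 and mig-10), in groups of 5 and 4 arrays, against 1.31% of all probe sets. The array left out, replicate 5 of the mutant with curcumin, stayed below the mutant DMSO arrays in unc-6 (6.41) and unc-5 (6.82). It lay above the lowest of them in vab-2 (7.83 against 7.64), sdn-1 (9.58 against 9.36), mig-2 (7.97 against 7.95) and mig-10 (9.26 against 8.99). For unc-6 the curcumin arrays of the fit were between 6.32 and 6.44 and the DMSO arrays between 6.54 and 7.05.

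**Figure D5:**
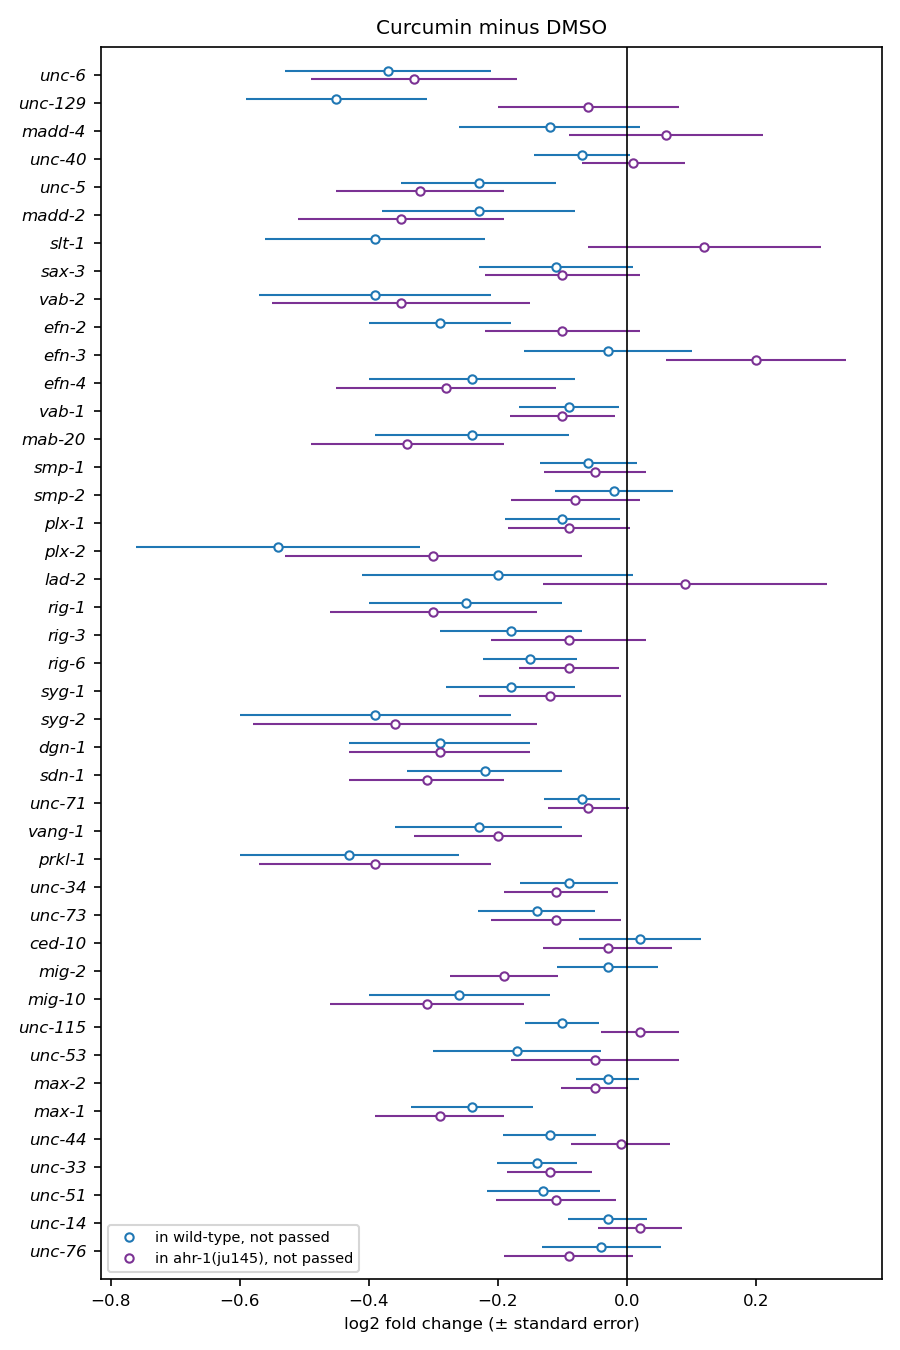
Log2 fold change of curcumin minus DMSO (x axis) for 43 guidance genes (y axis), in wild-type in blue and in ahr-1(ju145) in purple. Bars are the standard error of the limma fit, and open points did not pass an adjusted p of 0.1. All points are open, and the values run from -0.54 to 0.02 in wild-type and from -0.39 to 0.20 in ahr-1(ju145).

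Whether curcumin acted differently in the strains was tested as the difference of the curcumin effects, ahr-1(ju145) minus wild-type. Of the 43 genes 0 passed by limma, against 0.0% of all probe sets, and 0 had an unadjusted p under 0.05, against 3.36% of all probe sets. The largest differences were those of slt-1, 0.51 ± 0.25, and unc-129, 0.38 ± 0.20, each with a limma adjusted p of 1.0. In slt-1 the curcumin-treated wild-type arrays were at 4.77, 5.04, 4.81, 4.74 and 5.68 and the curcumin-treated mutant arrays at 4.98, 4.76, 4.75 and 4.37. These overlapped, and wild-type replicate 5 stood alone at the top. A difference that misses the threshold does not show that the strains respond alike: for syg-2 it was 0.03 with a standard error of 0.30. The values of the strains rest on different arrays, though arrays of equal number correlated between the strains. These values had the same sign in 35 of the 43 genes, with a Pearson's r of 0.565 and a Spearman's rho of 0.597 across genes.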

How the data were processed

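RNA of whole worms was hybridised to Affymetrix C. elegans Gene 1.0 ST arrays, 20 in all, 5 in each of 4 groups. The deposited values used here are log2 values that the authors made with RMA (background correction, quantile normalization and summary of probes, by the oligo package in R according to the study's methods), and these steps were not repeated. The deposited tables of called probe sets hold the authors' own fold changes and p-values and were not used. The number of arrays limits the precision, and no source used here names the genome build of the annotation.

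Probe sets were named by the platform's annotation, and the 43 genes matched RefSeq's gene table by number and symbol. All 29317 probe sets entered 1 limma fit (limma 3.58.1, R 4.3.3) of 19 arrays, with a mean per group, no block, 15 residual and 3.3763 prior degrees of freedom, two-sided p-values and Benjamini-Hochberg adjustment within a comparison. An adjusted p under 0.1 passed, as in the study's methods. The array omitted there, replicate 5 of the mutant with curcumin, was omitted here too. The script was tested on simulated data. Values per array were given for genes that passed, the largest of a class without such a gene, the 2 largest of each curcumin comparison, ahr-1 and, chosen after its values were seen, madd-2, and other lists were named by up to 3 genes that passed. The genes and lists were chosen with earlier results of these data known.

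The labels number replicates equally in all groups. Deviations from the group means correlated between arrays of equal number in the DMSO comparison of strains at 0.114 to 0.431 in all 5 pairs, so these were taken as paired. The main fit has no block all the same, and the fit with the replicate block is given beside it. In the other comparisons some pairs were under 0.1, and the lowest was 0.0575. For curcumin in wild-type 3 of the 5 pairs were over 0.1, with a mean of 0.247, against -0.0616 for unequal numbers. In the curcumin comparison of strains 3 of the 4 pairs were over 0.1, and the mean was 0.162, against -0.0402 for unequal numbers. There all 4 mutant arrays correlated best with the wild-type array of their own number. The alternatives were 20 arrays, the compared groups alone, the replicate block, array weights, further quantile normalization, arrays centred on medians, the trend and robust options of limma, leaving out dim probe sets, identical probe sets counted once, a threshold of 0.05, the embryo markers as a covariate and each array left out. The epidermis and molting markers as a covariate were added after seeing the data.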

Additional observations from a re-analysis of the deposited data

Results flagged for a closer look

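Among 13 genes in 4 groups, 52 groups of values in all, 3 had an array that stood far from the rest, and chance alone marks about 1 in 20 groups. One of the 13 genes, madd-2, was chosen after its values were seen, so the count cannot be compared with that rate. plx-2 was at 5.71 in replicate 3 of ahr-1(ju145) with curcumin, where the other arrays lay between 5.97 and 6.01. madd-2 was at 7.77 in replicate 5 of ahr-1(ju145) with DMSO, against 6.98 to 7.13 in the others. ahr-1 was at 4.27 in replicate 2 of ahr-1(ju145) with DMSO, against 4.85 to 4.98 in the others.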

How the results depend on the processing

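Under the alternatives that leave out no array, apart from the epidermis and molting markers as a covariate, the count of genes that passed in the DMSO comparison of strains was 9 to 15, with 15 under the replicate block. The share of the probe sets tested that were lower moved as well, from 0.617% at the threshold of 0.05 to 2.81% with the filter on dim probe sets. With each array left out in turn the count was 6 to 13, and that share was 0.29% to 1.66%. The count fell by more than 1.5 times only without wild-type DMSO replicate 1 or 5 (6 genes each), and with the epidermis and molting markers as a covariate, where it was 0. With curcumin the count was 2 in the main fit, where 0.379% of all probe sets were lower. It became 5 with all 20 arrays (0.474% lower), with arrays centred on their medians (0.467%) or with the filter on dim probe sets (1.17%). It was 1 with the compared groups alone (0.0512%), 4 with array weights (0.525%) and 0 with the embryo (0.167%) or the epidermis and molting covariate (0.0171%). With the replicate block it was 7 (0.843%), where 3 of the 4 pairs of arrays of equal number correlated over 0.1. With each array left out it was 0 to 10 (0.0546% to 0.914%). In the curcumin comparisons and in the difference of the curcumin effects, 0 genes passed under any alternative run. The cause of these shifts was not tested.

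The median over the 43 genes with each array left out was -0.28 to -0.19 for loss of ahr-1 with DMSO, -0.26 to -0.15 for loss of ahr-1 with curcumin, -0.23 to -0.12 for curcumin in wild-type and -0.13 to -0.09 for curcumin in ahr-1(ju145). For loss of ahr-1 it was 0.03 with DMSO and -0.01 with curcumin with the epidermis and molting markers as a covariate, and -0.14 and -0.09 with the embryo markers. For curcumin in ahr-1(ju145) it turned to 0.01 with the embryo markers, as did syg-2 (0.01). unc-6 did not pass in 18 of 31 alternatives for loss of ahr-1 with DMSO, with a turned sign under the epidermis and molting covariate and limma adjusted p-values of 0.0168 to 0.962. The replicate block changed no other call with DMSO than the 5 genes given.

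Signs turned mostly with the covariates. With the epidermis and molting markers, the log2 fold changes with DMSO became, for cues and receptors, unc-6 0.04, madd-4 0.04, unc-40 0.06, unc-5 0.1, sax-3 0.15, vab-2 0.42, efn-4 0.29, vab-1 0.03, mab-20 0.23, smp-1 0.01, plx-1 0.16, lad-2 0.14, rig-1 0.13, dgn-1 0.17, sdn-1 0.14 and vang-1 0.28, and for effectors madd-2 0.26, unc-34 0.12, unc-73 0.03, mig-2 0.12, mig-10 0.12, unc-53 0.01, max-2 0.05, unc-14 0.01 and unc-76 0.2. With curcumin they became madd-2 0.03, slt-1 0.12, sax-3 0.09, vab-2 0.3, efn-3 -0.12, efn-4 0.16, mab-20 0.03, smp-2 -0.03, plx-1 0.13, plx-2 0.02, lad-2 0.33, rig-3 0.05, dgn-1 0.07, vang-1 0.22, unc-34 0.05, unc-73 0.01, unc-53 0.06, max-2 0.01, unc-14 0.03 and unc-76 0.09. With the embryo markers the values were madd-4 0.03, efn-4 0.02, plx-1 0.02, max-2 0.01 and unc-76 0.05 with DMSO, and efn-3 -0.02, efn-4 0.01, plx-1 0.03, lad-2 0.11, vang-1 0.03 and unc-76 0.01 with curcumin. madd-4 with DMSO was at 0.04 with array weights and 0.01 after further quantile normalization. With curcumin, unc-40 was at -0.00128 with array weights, plx-1 at 0.00341 with all 20 arrays and 0.01 with the replicate block, and lad-2 at 0.02 with that block. With each array left out, the values with DMSO were -0.06 to 0.07 for madd-4, -0.18 to 0.01 for efn-3, -0.1 to 0.02 for plx-1, -0.02 to 0.05 for unc-71 and -0.1 to 0.01 for unc-76. With curcumin they were -0.04 to 0.08 for unc-40, -0.09 to 0.03 for plx-1, -0.24 to 0.03 for lad-2 and -0.01 to 0.03 for unc-71.

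Averaging several probe sets of a gene was not run, since each gene has 1. The search for a motif in promoters was not run.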
